A study of Mus musculus with 7 samples.

Results

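The fibrillar collagen chains described here were 8 genes, *Col1a1*, *Col1a2*, *Col3a1*, *Col5a1*, *Col5a2*, *Col5a3*, *Col11a1* and *Col27a1*, of 55487 genes measured. They were chosen by name as fibrillar collagen genes, not by a threshold on their values, and 3 further fibrillar collagen genes (*Col2a1*, *Col11a2* and *Col24a1*) are given beside them. Messenger RNA was sequenced from the thoracic aorta of male C57BL/6 mice aged 7 weeks, 3 *Col3a1+/G182R* and 4 *Col3a1+/+*, with 1 library per mouse. The paper names the descending part for these data, and describes removing fat from the aortic tissue that it froze. *Col3a1+/G182R* mice carried a heterozygous germline knock-in at the endogenous locus that replaces a glycine of the pro-α1(III) chain with arginine, as its name gives, a model of vascular Ehlers-Danlos syndrome, after removal of the selection cassette with an FLPe recombinase transgene. *Col3a1+/+* mice carried no knock-in, and none of the mice sequenced was labelled with a drug treatment. Since the tissue was not separated into cell types, fewer cells of a type and less RNA per cell cannot be told apart.

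Fibrillar collagens are triple helices of 3 chains built of Gly-X-Y repeats, and they assemble into the fibers that carry load in the arterial wall. *Col1a1* and *Col1a2* encode the chains of type I collagen, usually a heterotrimer with more α1 than α2 chain. *Col3a1* encodes the only chain of type III collagen, a homotrimer that is abundant in distensible tissues such as large arteries. *Col5a1*, *Col5a2* and *Col5a3* encode type V collagen, a minor component that helps to start fibrils and limits their width, and *Col11a1* encodes a close relative of *Col5a1* best known in cartilage. *Col27a1* encodes a chain with a shorter helix, also best known in cartilage.

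The run of Gly-X-Y triplets is what the knock-in interrupts, so the same place in the run is shown for *Col3a1* and for the 4 other chains with the highest levels. Each line holds 39 bases of the GENCODE M21 coding sequence, with the codon that opens each Gly-X-Y triplet, always glycine, in capitals and the seventh triplet of the uninterrupted run starting in the middle. The lines are set by position in the run, not by homology.
*Col3a1*: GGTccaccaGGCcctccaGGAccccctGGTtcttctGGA
*Col1a1*: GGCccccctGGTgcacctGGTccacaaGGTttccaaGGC
*Col1a2*: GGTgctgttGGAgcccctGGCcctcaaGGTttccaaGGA
*Col5a1*: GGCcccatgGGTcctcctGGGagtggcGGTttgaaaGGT
*Col5a2*: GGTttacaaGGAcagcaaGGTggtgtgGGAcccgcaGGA

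The middle codon of the *Col3a1* line, GGA, is that of the replaced glycine, and the knock-in changes its first base (G544A, with the first base of the start codon of the reference transcript as 1, a numbering that differs from that of the study). This stretch lies wholly in exon 6, at chr1:45325360-45325398 of GRCm38 on the plus strand. The *Col1a1* stretch runs over the junction of exons 7 and 8 (chr11:94939724-94939924, plus strand), as does that of *Col1a2* (chr6:4515237-4515501, plus strand). The *Col5a1* stretch joins exons 14 and 15 (chr2:27964116-27965280, plus strand), and the *Col5a2* stretch joins exons 9 and 10 (chr1:45422419-45423699, minus strand). In all 5 stretches a glycine codon opens each triplet, and *Col5a1* (ggc) and *Col5a2* (ggt) hold a further glycine codon inside the middle triplet, left in lower case. The glycine in the middle of each line, near the start of the run, is encoded by GGA in *Col3a1*, GGT in *Col1a1* and *Col5a2*, GGC in *Col1a2* and GGG in *Col5a1*. The uninterrupted run is of like length in 7 chains, with 344 triplets in *Col3a1*, 338 in *Col1a1*, *Col5a1* and *Col11a1*, 339 in *Col1a2* and *Col5a2* and 337 in *Col5a3*. It has 217 triplets in *Col27a1*. Exons of 54 bases, which hold whole triplets only, make up 24 of the 51 exons of *Col3a1* and 21 of the 51 exons of *Col1a1*. *Col3a1* and *Col5a2* are neighbors on chromosome 1 that are read toward each other, with 24614 bases between their ends. The other chains lie on chromosomes 11, 6, 2, 9, 3 and 4.

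Total counts were 18820015 to 23953746 in *Col3a1+/G182R* libraries and 13693861 to 21634680 in *Col3a1+/+* libraries. *Col3a1+/+* replicate 4 had the lowest total and lay farthest out on the first principal component, which held 43.3% of the variance. It was the highest or the lowest of the 7 libraries for 56.1% of the 15688 genes tested. Among the chains it was lowest for *Col1a2*, *Col3a1* and *Col5a2*, highest for *Col5a3*, *Col11a1* and *Col27a1*, and neither for *Col1a1* and *Col5a1*. Fold changes and ratio differences that moved most without this library are given without it too, except in the later check on gene length.

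The chains spanned a wide range of levels, and *Col3a1* had the highest level in every library. Levels are given in TPM, RSEM's estimate of transcript abundance, which allows for gene length. *Col3a1* had 2105.35, 2127.67 and 3016.04 TPM in *Col3a1+/G182R* aortas, against 3250.96, 2229.49, 1954.10 and 1464.66 TPM in *Col3a1+/+* aortas, and ranked 42 of all genes by mean TPM. The *Col3a1+/+* mice held both the highest and the lowest value. *Col1a2* followed at rank 138, *Col1a1* at rank 313, *Col5a1* at rank 816 and *Col5a2* at rank 982. *Col27a1* ranked 7357 and *Col5a3* 10922, while *Col11a1*, at rank 18569, was close to the limit of detection. *Col3a1* exceeded *Col1a2*, *Col1a2* exceeded *Col1a1*, and *Col27a1* exceeded *Col5a3* in each of the 7 libraries. *Col5a1* exceeded *Col5a2* in every library but *Col3a1+/G182R* replicate 3, where they had 155.22 and 155.46 TPM. Together the 8 chains took 0.947, 0.973 and 1.152% of all counts in *Col3a1+/G182R* aortas, and 1.315, 0.909, 0.868 and 0.903% in *Col3a1+/+* aortas. *Col3a1+/+* replicate 1 had the highest share, and the other 3 *Col3a1+/+* mice lay below all *Col3a1+/G182R* mice. Of the counts of the 8 chains, *Col3a1* took 42.9, 42.4 and 45.73% in *Col3a1+/G182R* aortas, and 41.6, 42.16, 40.11 and 33.85% in *Col3a1+/+* aortas. All *Col3a1+/G182R* shares of counts lay above all *Col3a1+/+* shares, the nearest being 42.4 and 42.16%. As a share of the chains' summed TPM the genotypes overlapped, with 59.13, 58.99 and 62.86% in *Col3a1+/G182R* aortas and 60.15, 61.92, 59.89 and 49.91% in *Col3a1+/+* aortas. These shares were not tested.

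**Figure D1:**
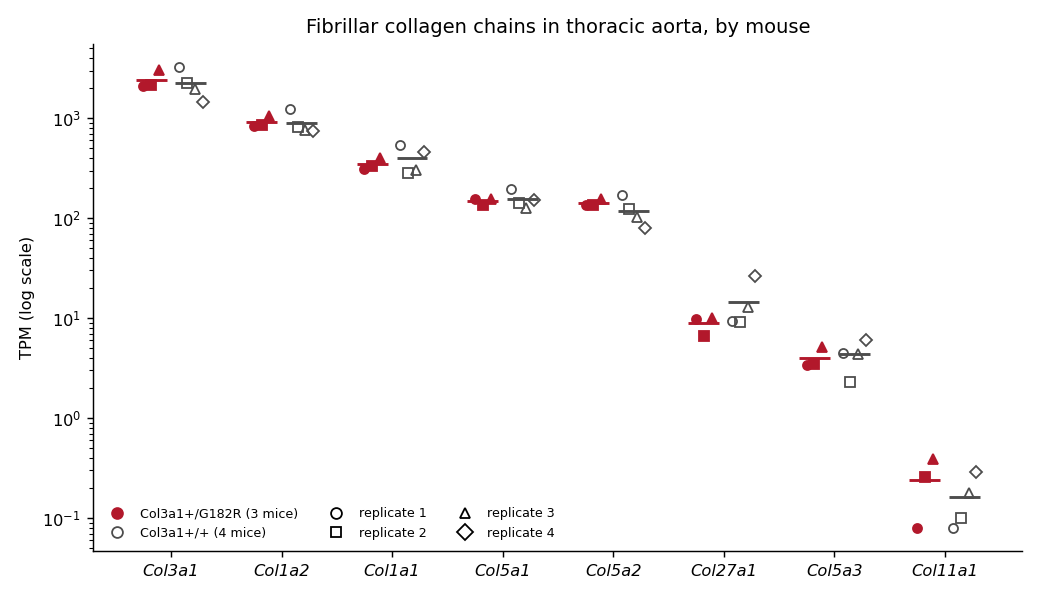
TPM of each fibrillar collagen chain (log axis), with 1 point per mouse and a line at the arithmetic mean of each genotype, *Col3a1+/G182R* left of *Col3a1+/+*. The genotypes overlap for all 8 chains, and *Col3a1* is the highest chain, at 1464.66 TPM or more in every mouse.

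These levels depend on the length that each gene was given in the files. The length is an average over the transcripts of a gene weighted by their estimated abundance. For *Col3a1* it was 2746 to 2846 bases in *Col3a1+/G182R* libraries and 2499 to 2851 bases in *Col3a1+/+* libraries. The 2851 bases were those of *Col3a1+/+* replicate 4. The other *Col3a1+/+* libraries had 2499 to 2604 bases, below all *Col3a1+/G182R* libraries. The longest coding transcript of *Col3a1* has 5564 bases, so that the gene's length was 49.35 to 51.15% of it in *Col3a1+/G182R* and 44.91 to 51.25% in *Col3a1+/+*. *Col5a1* was likewise given 51.07 to 53.15% of its 8406-base coding transcript in *Col3a1+/G182R* and 50.73 to 59.8% in *Col3a1+/+*. *Col1a1*, *Col1a2*, *Col5a2* and *Col5a3* were given lengths close to their coding transcripts. *Col27a1* was given 62.76 to 67.7% in *Col3a1+/G182R* and 57.41 to 65.28% in *Col3a1+/+*. *Col11a1*, with its few counts, was given 28.45 to 86.22% in *Col3a1+/G182R*, which is 2181 to 6610 bases, and 40.03 to 44.15% in *Col3a1+/+*. A shorter length raises TPM, and the counts of whole genes do not show which transcripts were present.

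**Figure D2:**
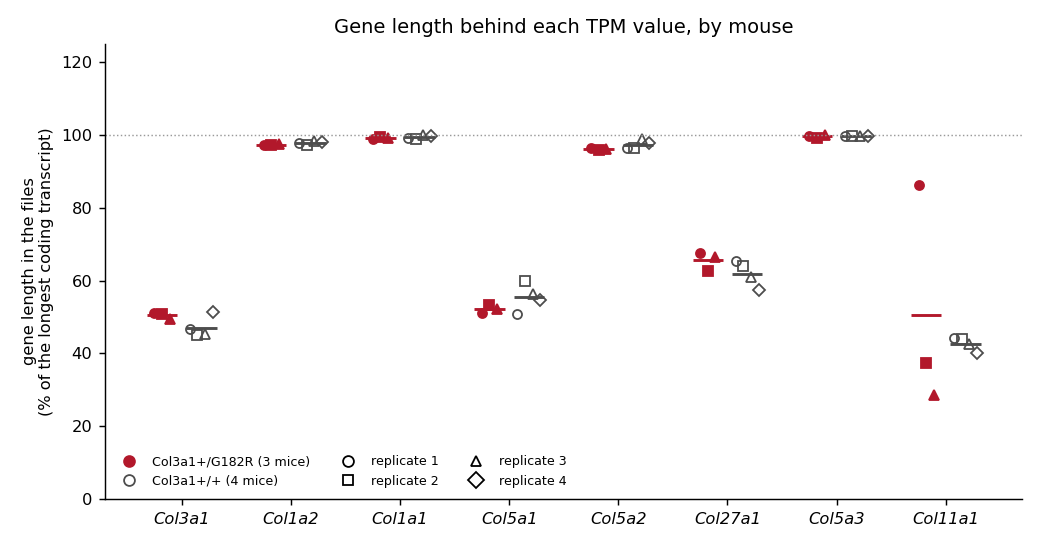
Gene length in the files as a percentage of the longest coding transcript (vertical axis) for each chain, with 1 point per mouse, *Col3a1+/G182R* left of *Col3a1+/+*. *Col3a1* lies between 44.91 and 51.25%, and *Col1a1*, *Col1a2*, *Col5a2* and *Col5a3* lie near 100%.

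When counts, as a share of the library's total and without TMM, were divided instead by the effective length of the coding transcript, the levels of *Col3a1* and *Col1a2* came closer. *Col3a1* averaged 824.7 ± 124.2 CPM (before TMM) per kilobase of this length in *Col3a1+/G182R* and 727.1 ± 193.6 in *Col3a1+/+* (SD, n = 3 and n = 4). *Col1a2* averaged 621.7 ± 53.98 in *Col3a1+/G182R* and 623.7 ± 129.1 in *Col3a1+/+* on the same scale. *Col5a2* then stood above *Col5a1*, with 94.78 against 53.37 in *Col3a1+/G182R* and 82.74 against 60.57 in *Col3a1+/+* as means. The order of the other chains was as with TPM.

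The next comparison asked whether the chains other than the mutated one differed between genotypes. No chain was called different between genotypes, which is near the small share called over all genes. The 95% intervals of the folds reached 1.59 for *Col3a1* and 0.393 for *Col27a1*, so changes of that size are not excluded. Of the 8 chains, 7 had enough counts to be tested, and 0 of 7 passed the threshold, an adjusted p of 0.05 in edgeR's quasi-likelihood test, as 0.0382% of all 15688 genes did, 0.0191% in each direction. DESeq2 called 0 of 7 as well, against 4.61% of all genes (2.61% were lower in *Col3a1+/G182R* and the rest higher). An unadjusted p under 0.05 was found for 0 of 7 chains, against 20.4% of all genes. All 8 chains overlapped between genotypes in CPM, the counts scaled to library size, while 20.9% of the genes tested did not (10.1% higher and 10.8% lower in *Col3a1+/G182R*). The estimate was above 0 for 3 of the 7 chains and below 0 for 4, with a median log2 fold change of -0.16 beside 0.01 over all genes tested. Log2 fold changes are on counts, and a positive value means a higher level in *Col3a1+/G182R*.

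**Figure D3:**
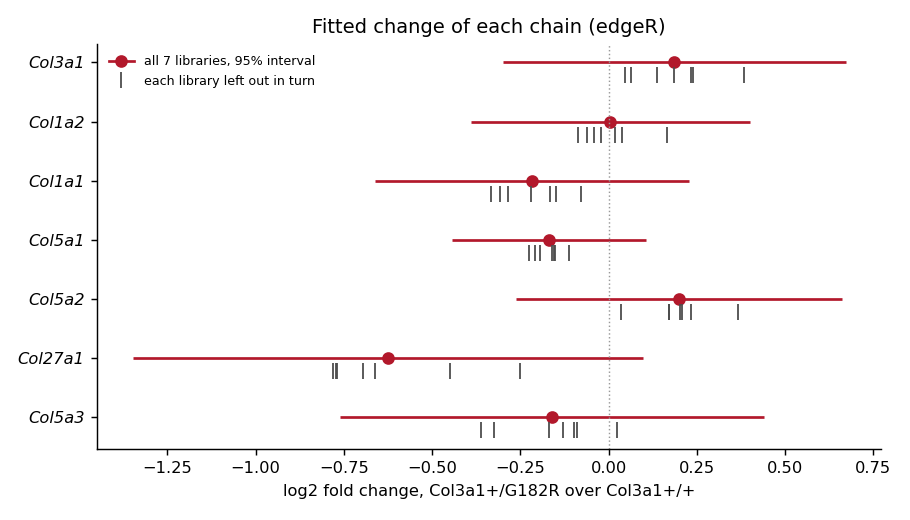
Log2 fold change (horizontal axis, *Col3a1+/G182R* over *Col3a1+/+*) for the 7 chains tested, with 95% intervals from edgeR as bars and the values with each library left out in turn as ticks below. All 7 intervals contain 0, and the value of *Col27a1* nearest to 0, -0.25, is that without *Col3a1+/+* replicate 4.

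The type III and type I chains were the most abundant. *Col3a1*, read from both alleles together, had a log2 fold change of 0.19 (SE 0.217, adjusted p = 0.633), with a 95% interval of 0.813 to 1.59 as a fold. The value was 0.05 without *Col3a1+/+* replicate 4 and 0.38 without *Col3a1+/+* replicate 1. *Col1a2* had 840.92, 860.77 and 1053.12 TPM in *Col3a1+/G182R* aortas, against 1237.82, 809.77, 757.77 and 742.60 TPM in *Col3a1+/+* aortas. A single *Col3a1+/+* mouse exceeded all others, and the other 3 lay below all *Col3a1+/G182R* mice. Its log2 fold change was 0.0046 (SE 0.177, adjusted p = 0.990), with a fold between 0.763 and 1.32. *Col1a1* had 311.97, 335.59 and 402.44 TPM in *Col3a1+/G182R* aortas, against 535.45, 286.48, 303.08 and 462.23 TPM in *Col3a1+/+* aortas. The *Col3a1+/+* values lay both above and below those of *Col3a1+/G182R*. Its log2 fold change was -0.22 (SE 0.199, adjusted p = 0.541), with a fold between 0.632 and 1.17.

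The 2 main type V chains overlapped between genotypes. *Col5a1*, whose chain carries the large amino-terminal domain that stays on the fibril surface, had 154.75, 136.97 and 155.22 TPM in *Col3a1+/G182R* aortas, against 197.86, 140.37, 126.45 and 152.68 TPM in *Col3a1+/+* aortas. The *Col3a1+/G182R* values lay inside the range of *Col3a1+/+*. Its log2 fold change was -0.17 (SE 0.123, adjusted p = 0.443), the narrowest interval of the 7, with a fold between 0.736 and 1.08. *Col5a2*, the partner of *Col5a1* in the main type V trimer, had 134.34, 135.22 and 155.46 TPM in *Col3a1+/G182R* aortas, against 168.96, 122.93, 103.89 and 79.12 TPM in *Col3a1+/+* aortas. The *Col3a1+/G182R* mice were again closer to each other than the *Col3a1+/+* mice. Its log2 fold change was 0.20 (SE 0.206, adjusted p = 0.588), with a fold between 0.834 and 1.58, and it was 0.04 without *Col3a1+/+* replicate 4. *Col5a1* was the one chain whose counts were not all whole, since the authors' counting shares reads that fit more than 1 gene.

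The minor chains were present at low level or barely counted. *Col27a1* had 9.91, 6.64 and 10.12 TPM in *Col3a1+/G182R* aortas, against 9.45, 9.12, 12.85 and 26.64 TPM in *Col3a1+/+* aortas. The last of these, *Col3a1+/+* replicate 4, stood apart from the other 6 mice. Its log2 fold change was -0.63 (SE 0.323, adjusted p = 0.296), the largest in size among the 7 chains, and -0.25 without that library. *Col5a3* had 3.43, 3.49 and 5.10 TPM in *Col3a1+/G182R* aortas, against 4.53, 2.31, 4.41 and 6.09 TPM in *Col3a1+/+* aortas. The ranges overlapped widely, and its log2 fold change was -0.16 (SE 0.268, adjusted p = 0.752), and 0.02 without *Col3a1+/+* replicate 4. *Col11a1* had 8, 12 and 10 counts in *Col3a1+/G182R* libraries, against 4, 4, 7 and 9 counts in *Col3a1+/+* libraries, too few for a test. Its TPM was 0.08 to 0.39 in *Col3a1+/G182R* and 0.08 to 0.29 in *Col3a1+/+*. Of the fibrillar genes outside the 8, *Col2a1*, the main cartilage collagen, had 0 to 13 counts and *Col24a1* had 0 or 1, and neither was tested. *Col11a2* had 0.73 to 1.32 TPM in *Col3a1+/G182R* and 1.20 to 3.21 TPM in *Col3a1+/+*, with a log2 fold change of -0.69 (SE 0.318, adjusted p = 0.255).

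Ratios between chains within a library do not depend on its depth, and they ask whether the fibril's chains kept their proportions. None of 7 ratios passed a p of 0.05 (two-sided exact permutation test over the 35 ways to divide the libraries, in which the smallest possible p is 0.0286). The ratio of *Col1a1* to *Col1a2* was 0.371, 0.390 and 0.382 in *Col3a1+/G182R* aortas, against 0.433, 0.354, 0.400 and 0.622 in *Col3a1+/+* aortas. The *Col3a1+/G182R* values lay within 0.371 to 0.390, inside the range of the other genotype. The log2 difference was -0.21 (exact permutation p = 0.457, adjusted p = 0.840 over the 7 ratios), and it was -0.05 without *Col3a1+/+* replicate 4 and -0.32 without *Col3a1+/+* replicate 2.

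The ratio of *Col3a1* to *Col1a1* was 6.75, 6.34 and 7.49 in *Col3a1+/G182R* aortas, against 6.07, 7.78, 6.45 and 3.17 in *Col3a1+/+* aortas. Only *Col3a1+/+* replicate 4 lay below 6, and the log2 difference was 0.30 (exact permutation p = 0.543, adjusted p = 0.840). It was 0.02 without that library and 0.46 without *Col3a1+/+* replicate 2. The ratio of *Col5a1* to *Col5a2* was 1.15, 1.01 and 0.999 in *Col3a1+/G182R* aortas, against 1.17, 1.14, 1.22 and 1.93 in *Col3a1+/+* aortas. A single *Col3a1+/G182R* value exceeded the lowest *Col3a1+/+* value, and the log2 difference was -0.34 (exact permutation p = 0.143, adjusted p = 0.840). Without *Col3a1+/+* replicate 4 it was -0.16. The ratio of *Col3a1* to *Col1a2* was 2.504, 2.472 and 2.864 in *Col3a1+/G182R* aortas, against 2.626, 2.753, 2.579 and 1.972 in *Col3a1+/+* aortas, with a log2 difference of 0.08 (exact permutation p = 0.771, adjusted p = 0.900). Without *Col3a1+/+* replicate 4 it was -0.02. Log2 differences were 0.10 for *Col5a1* to *Col1a1* (exact permutation p = 0.571), -0.02 for *Col5a3* to *Col5a1* (exact permutation p = 0.943) and 0.52 for *Col11a1* to *Col5a1* (exact permutation p = 0.600). Without *Col3a1+/+* replicate 4 these 3 were 0.02, 0.17 and 0.86. That of *Col11a1* to *Col5a1*, which rests on the few counts of *Col11a1*, ran from 0.08 to 1.22 with a library left out.

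**Figure D4:**
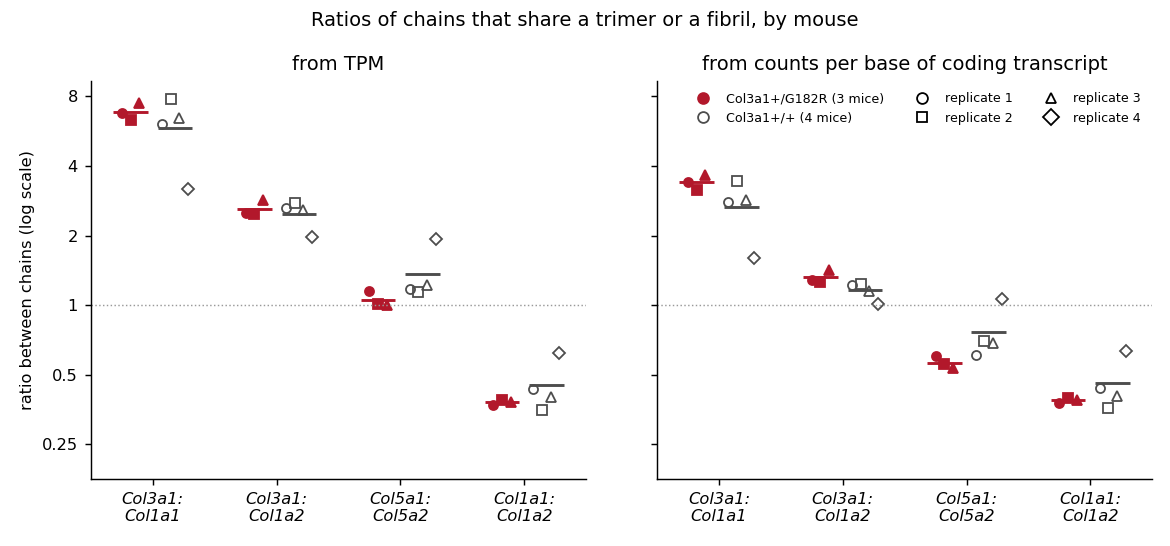
Ratios between chains on a log axis, from TPM (left panel) and from counts per base of the longest coding transcript (right panel), with 1 point per mouse, *Col3a1+/G182R* left of *Col3a1+/+*, and a line at the mean. From TPM the genotypes overlap in each ratio, and *Col3a1+/+* replicate 4 is the farthest point for *Col1a1*:*Col1a2* (0.622), *Col3a1*:*Col1a1* (3.17) and *Col5a1*:*Col5a2* (1.93).

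Length mattered to the ratios that hold *Col3a1* or *Col5a1*. With the coding transcript's effective length the ratio of *Col3a1* to *Col1a2* was 1.29, 1.26 and 1.42 in *Col3a1+/G182R* aortas, against 1.23, 1.24, 1.16 and 1.01 in *Col3a1+/+* aortas, and the genotypes no longer overlapped. The log2 difference was 0.19 (exact permutation p = 0.0857). The ratio of *Col5a1* to *Col5a2* also stopped overlapping, at 0.602, 0.554 and 0.536 in *Col3a1+/G182R* aortas, against 0.609, 0.701, 0.686 and 1.07 in *Col3a1+/+* aortas (log2 difference -0.41, exact permutation p = 0.0571). The nearest values were 1.26 and 1.24 in the first ratio, and 0.602 and 0.609 in the second. *Col3a1+/+* replicate 4 held the farthest *Col3a1+/+* value of each, 1.01 and 1.07, and these differences were not computed without it. How often ratios of other genes fail to overlap was not computed. The ratio of *Col3a1* to *Col1a1* averaged 3.41 ± 0.24 in *Col3a1+/G182R* and 2.67 ± 0.77 in *Col3a1+/+* (SD, n = 3 and n = 4, exact permutation p = 0.171). The coding lengths were chosen after the data were seen. They hardly vary between libraries, so counts not divided by length must give nearly the same differences and are no separate check. *Col3a1* to *Col1a2* was at least 1.313 in *Col3a1+/G182R* and at most 1.289 in *Col3a1+/+* (log2 difference 0.19, exact permutation p = 0.0857). *Col5a1* to *Col5a2* was at most 0.767 in *Col3a1+/G182R* and at least 0.7755 in *Col3a1+/+* (-0.41, exact permutation p = 0.0571). *Col3a1* to *Col1a1* overlapped (0.40, exact permutation p = 0.171). None of the 3 differences passed 0.05 either way.

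Across the 7 libraries *Col3a1* and *Col1a2* had the highest coefficient of the 6 pairs of chains tested (log2 TPM, Pearson's r = 0.923, permutation p = 0.000992, adjusted p = 0.00595 over the 6 pairs, Spearman's rho = 0.893, permutation p = 0.0123, adjusted p = 0.0738). *Col3a1* and *Col5a2*, a pair outside these 6, had r = 0.941, given here with no test. Without the 2 libraries farthest from the median of *Col3a1*, *Col3a1+/+* replicates 1 and 4, r of *Col3a1* and *Col1a2* was 0.952. *Col1a1* and *Col1a2*, the chains of one trimer, had r = 0.621 (permutation p = 0.125) over all 7 libraries, and 0.933 without the 2 farthest. *Col3a1* and *Col1a1* had r = 0.294 (permutation p = 0.523), and *Col5a1* and *Col5a2* had r = 0.507 (permutation p = 0.236). Without the 2 farthest libraries of each pair these were 0.842 and -0.098, so both coefficients depend on those libraries. *Col5a1* followed *Col1a1* with r = 0.813 (permutation p = 0.0175, adjusted p = 0.0524), and with r = 0.524 without the 2 farthest libraries. These points share libraries of both genotypes, and no batch is named within which they could be computed.

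The genes whose log2 TPM went most closely with *Col3a1* among 8059 genes with a mean of at least 10 TPM were *Fbn1* (r = 0.9954), *Tex261* (0.993), *Cd63* (0.993), *Polr3e* (0.992) and *Mcfd2* (0.991). *Fbn1* encodes fibrillin-1, the main protein of the microfibrils of elastic fibers. *Col5a2* stood at place 79 in this order, *Col1a2* at place 136 and *Col1a1* at place 3919. The genes closest to *Col5a1* were *Dmtn* (0.974), *Fcgrt* (0.964), *Ephx1* (0.961), *Man2b1* (0.958) and *Pofut2* (0.954), with *Col1a1* at place 129 and *Col1a2* at place 131. These coefficients describe 7 libraries that share depth and composition.

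Procollagen is hydroxylated, folded, trimmed, crosslinked and coated by other proteins, and lists of these helpers were read in the same fit. edgeR called none of the 49 helpers tested, of 51 listed, and 9 of them had an unadjusted p under 0.05, which 20.4% of all genes had. DESeq2 called 5 of them, against 4.61% of all genes (*P4ha2*, *Fkbp10* and *Loxl3* lower, *Lum* and *Aspn* higher in *Col3a1+/G182R*). Without *Col3a1+/+* replicate 1, edgeR called 3 helpers (*Dcn*, *Lum* and *Aspn*, higher), and 183 of all 15471 genes. Without *Col3a1+/+* replicate 4 it called 0 helpers, and 32 of all 15565 genes. With no low-count filter it called *Lum* and *Aspn*, and 353 of all 27619 genes. Limma with library quality weights called *Loxl3* lower and *Dcn*, *Lum* and *Aspn* higher, and 546 of all 15688 genes. Of the 14 tested hydroxylases and partners, 11 were measured lower in *Col3a1+/G182R*, with a median log2 fold change of -0.14 beside 0.01 over all genes. *P4ha2*, a prolyl 4-hydroxylase subunit, had 51.37, 56.92 and 55.89 CPM in *Col3a1+/G182R* aortas, against 73.79, 68.89, 72.35 and 70.44 CPM in *Col3a1+/+* aortas. The genotypes did not overlap, with a log2 fold change of -0.38 (SE 0.106, adjusted p = 0.158 by edgeR and 0.0126 by DESeq2). *Crtap*, a partner in prolyl 3-hydroxylation, averaged 135.9 ± 2.67 CPM in *Col3a1+/G182R* and 159.9 ± 4.38 CPM in *Col3a1+/+*, without overlap (log2 fold change -0.23, adjusted p = 0.246).

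Among 10 chaperones and secretion factors, 7 were measured higher and 3 lower. *Fkbp10*, a prolyl isomerase of the endoplasmic reticulum needed for collagen crosslinking, had 145.5, 141.0 and 121.6 CPM in *Col3a1+/G182R* aortas, against 176.6, 189.3, 181.5 and 179.0 CPM in *Col3a1+/+* aortas. All *Col3a1+/G182R* values lay below all *Col3a1+/+* values (log2 fold change -0.42, SE 0.116, adjusted p = 0.158 by edgeR and 0.0108 by DESeq2). *Tram2*, a translocation factor used in type I collagen synthesis, averaged 45.75 CPM in *Col3a1+/G182R* and 57.06 CPM in *Col3a1+/+* and overlapped between genotypes (adjusted p = 0.228). Of 7 propeptide proteinases and enhancers tested, DESeq2 also called none. *Bmp1*, the procollagen C-proteinase, averaged 169.6 CPM in *Col3a1+/G182R* and 225.6 CPM in *Col3a1+/+* (adjusted p = 0.265). *Adamts3*, a procollagen N-proteinase, averaged 1.23 CPM in *Col3a1+/G182R* and 0.647 CPM in *Col3a1+/+* (adjusted p = 0.280).

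Of the 5 lysyl oxidases, which crosslink collagen and elastin, *Loxl3* had 90.66, 79.28 and 87.09 CPM in *Col3a1+/G182R* aortas, against 118.3, 113.9, 144.9 and 130.9 CPM in *Col3a1+/+* aortas. The genotypes did not overlap (log2 fold change -0.57, SE 0.128, adjusted p = 0.145 by edgeR and 0.00363 by DESeq2). *Loxl1* averaged 331.3 CPM in *Col3a1+/G182R* and 377.4 CPM in *Col3a1+/+* (adjusted p = 0.389). Of 13 proteins of the fibril surface, 9 were measured higher and 4 lower, with a median log2 fold change of 0.30. *Lum*, the proteoglycan lumican, had 116.7, 130.8 and 121.1 CPM in *Col3a1+/G182R* aortas, against 99.92, 53.70, 37.05 and 23.07 CPM in *Col3a1+/+* aortas. The genotypes did not overlap (log2 fold change 1.20, SE 0.387, adjusted p = 0.171 by edgeR and 0.0425 by DESeq2), and the value was 0.94 without *Col3a1+/+* replicate 4. *Aspn*, a related proteoglycan, averaged 51.0 ± 12.7 CPM in *Col3a1+/G182R* and 22.4 ± 11.7 CPM in *Col3a1+/+* and overlapped (log2 fold change 1.18, adjusted p = 0.158 by edgeR and 0.0229 by DESeq2).

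Markers of the cell types of the aorta and its surroundings were read beside the chains. Smooth muscle markers summed to 23830 to 25590 TPM in *Col3a1+/G182R* and 17500 to 28540 TPM in *Col3a1+/+*, the lowest being replicate 4. Of the 6 smooth muscle markers, 5 were measured lower in *Col3a1+/G182R* (median log2 fold change -0.05). The 6 fibroblast markers, *Lum* among them, summed to 737.5 to 1145 TPM in *Col3a1+/G182R* and 406.5 to 901.8 TPM in *Col3a1+/+*. All 6 were measured higher in *Col3a1+/G182R* (median log2 fold change 0.44), as were all 6 macrophage markers (median 0.79, with 143.4 to 410.5 TPM in *Col3a1+/G182R* and 104.8 to 169.0 TPM in *Col3a1+/+*), and edgeR called none of the markers of any list. DESeq2 called 4 of the 48 markers tested, against 4.61% of all genes. *Lum* and the macrophage gene *Lyz2* were higher and the cardiac genes *Myh6* and *Tnni3* lower in *Col3a1+/G182R*. Without *Col3a1+/+* replicate 1 edgeR called the fibroblast genes *Dpt* and *Lum*, higher, and 183 of all 15471 genes. Sums of skeletal muscle markers were 9.66 to 13.49 TPM in *Col3a1+/G182R* and 16.25 to 32.26 TPM in *Col3a1+/+*, with *Myh4* at 0 in every library. Those of cardiac muscle were 20.88 to 25.89 TPM in *Col3a1+/G182R* and 29.18 to 99.55 TPM in *Col3a1+/+*. The skeletal and cardiac muscle sums were the only ones that did not overlap between genotypes. All 4 skeletal muscle markers tested were measured lower in *Col3a1+/G182R* (median log2 fold change -0.78), as were 3 of 4 cardiac ones (median -1.21). Endothelial, adipocyte, mesothelial and Schwann cell sums overlapped between genotypes, with endothelial sums of 249.4 to 344.2 TPM in *Col3a1+/G182R* and 152.5 to 428.1 TPM in *Col3a1+/+*. Of 6 markers each, 3 endothelial (median log2 fold change 0.04), 5 adipocyte (0.41) and 5 Schwann cell markers (0.23) were measured higher in *Col3a1+/G182R*. So were 2 of 2 mesothelial markers tested (1.15). Adipocyte sums were 2096 to 4464 TPM in *Col3a1+/G182R* and 1985 to 3998 TPM in *Col3a1+/+*. Replicate 4 held the highest *Col3a1+/+* sum of endothelial, adipocyte and Schwann cell markers. Cartilage and bone markers summed to 10.48 to 10.67 TPM in *Col3a1+/G182R* and 5.30 to 13.4 TPM in *Col3a1+/+*, with *Matn1* at 0 in every library. The part of these cells in the levels of the chains and helpers was not tested.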

How the data were processed

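Libraries were made from poly(A) RNA with a stranded kit, and the authors, per the submitters' processing notes, aligned reads to GRCm38 with STAR 2.7.6a and quantified genes with RSEM 1.3.1. The deposited files hold an expected count, a TPM value and a gene length and effective length in bases per gene and library. The annotation release is not given in the sources used here, and the paper's methods name featureCounts for its own results. Symbols and coordinates were taken from GENCODE M21 (55141 of 55487 identifiers found). Members and gene lists were chosen with earlier results of these data known.

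Expected counts were rounded, filtered with filterByExpr (minimum count 10) to 15688 genes and compared with the quasi-likelihood test of edgeR 4.0.16 after TMM (R 4.3.3, two-sided, genotype as the only term, Benjamini-Hochberg over all genes, threshold 0.05). CPM is after TMM. Total counts of 13693861 to 23953746 set the precision of low genes such as *Col11a1*. The script was tested on simulated data. Chain ratios were compared as log2 TPM by exact permutation in scipy 1.17.1, with Benjamini-Hochberg over 7 ratios. Genes were named by rule: the 8 chains, the other fibrillar genes, the 2 genes of each helper list with the smallest p, and the 5 genes closest to *Col3a1* and to *Col5a1*. *Dcn* and single cell type markers were named after their values were seen. Alternatives were DESeq2 1.42.0, limma-voom (limma 3.58.1), library quality weights, RLE factors, other filters, an effective length offset, a replicate block, other ratio units and leaving out each library. The sources give 1 library per mouse and name no batch.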

Additional observations from a re-analysis of the deposited data

Results flagged for a closer look

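*Col1a2* in *Col3a1+/+* replicate 1 had 1238 TPM, with the other *Col3a1+/+* mice between 742.60 and 809.77 TPM. It stood out because its gap to the nearest mouse, as a share of the range of the group, exceeded Dixon's critical value for 4 samples. The ratio of *Col5a1* to *Col5a2* in *Col3a1+/+* replicate 4 was 1.93, with the other *Col3a1+/+* mice between 1.14 and 1.22, and it stood out in the same way. The test was made in 15 groups of 4 mice, and chance flags about 1 in 20.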

How the results depend on the processing

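No chain passed the threshold under any alternative run, with adjusted p between 0.155 and 0.9998, and no ratio did over all 7 libraries, with p of 0.0571 or more. With a library left out or with the block the permutation test of a ratio cannot reach 0.05, so those settings give values only. Of 105 alternative values for the chains 95 kept their direction, as did 66 of 77 for the ratios. Those of the ratios are not all separate. Counts and mean effective lengths give the same ratio difference, as do the block and leaving out *Col3a1+/+* replicate 4. *Col1a2* (0.0046) was -5.29e-05 with DESeq2, -4.84e-05 with RLE factors, -0.0061 with at least 10 counts in every library, -0.058 with the replicate block and -0.0856 to 0.165 with a library left out. *Col5a3* (-0.16) was 0.0709 with the block and -0.361 to 0.0223 with a library left out. Without 1 library the others were -0.333 to -0.0786 (*Col1a1*), 0.0459 to 0.384 (*Col3a1*), -0.225 to -0.113 (*Col5a1*), 0.0351 to 0.367 (*Col5a2*) and -0.781 to -0.252 (*Col27a1*). The ratio *Col3a1*:*Col1a2* (0.08) was -0.0558 by medians, -0.0244 with the block and -0.0244 to 0.136 with a library left out. *Col5a1*:*Col1a1* (0.10) was -0.0025 to 0.206, and *Col5a3*:*Col5a1* (-0.02) was 0.0634 from counts or with mean effective lengths, 0.166 with the block and -0.260 to 0.166 with a library left out. Over all genes edgeR called 6, against 723 by DESeq2, 11 by limma-voom, 546 with library quality weights, 353 with no filter, 14 with the effective length offset, 46 with the replicate block and 0 with at least 10 counts in every library (3046 of 13967 at an unadjusted p under 0.05). With 1 library left out it called 0 to 183, the highest without *Col3a1+/+* replicate 1, then 32 without *Col3a1+/+* replicate 4, and 0 in the other 5 fits (1830 to 3315 at an unadjusted p under 0.05). Of the cell type markers the block called *Adipoq*, *Mb*, *Myh6* and *Tnnt2*, and no filter 6 markers. The cause was not tested. Equal replicate numbers did not pair the mice (correlations -0.0469 to 0.0777). With 3 and 4 mice the intervals of *Col3a1* and *Col5a2* reached 1.59-fold and 1.58-fold.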
